A study of Mus musculus with 91 samples.

Results

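The genes Ccn5, Mgp, Plac9a, Plac9b and 1500009L16Rik are 5 of the 16580 genes measured in 91 single mouse bone marrow cells. They were selected on measured values of these same cells, namely their levels by gate, their joint expression and their relation to Adipoq, Cxcl12 and Alpl in Cxcl12-abundant reticular (CAR) cells. Every level, share and correlation below is therefore a description, and none is an independent test of that choice. Marrow cells of C57BL/6 mice were freed by crushing bones, stained and index sorted into plates. Smart-seq2 then gave each cell its own library of whole transcripts. All cells came from a gate negative for the blood cell proteins CD45, Ter119, CD41 and CD71 and positive for a dye that excludes debris. Within it, 39 cells were sorted as VCAM1+ CD61+ (CD61+ cells), 40 as VCAM1+ CD61- (CD61- cells) and 9 as VCAM1+ with no CD61 choice (VCAM1+ cells). For 3 cells the labels disagree on the gate, and they enter no comparison between gates. No animal is named and no treatment or age was given, so each gate stands as 1 sample and gates were compared without a test.

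CAR cells are reticular stromal cells of the marrow that make the chemokine Cxcl12 and other factors on which blood stem cells depend, and many of them make adiponectin (Adipoq), an adipocyte hormone. Cells of the bone-forming lineage make tissue-nonspecific alkaline phosphatase (Alpl), which frees phosphate for mineral. CD61 is integrin beta 3, CD200 is a surface glycoprotein of the immunoglobulin superfamily, and VCAM1 is an adhesion molecule of stromal cells. Ccn5, also called Wisp2, encodes a secreted matricellular protein of the CCN family that lacks the C-terminal domain of its relatives. Mgp encodes matrix Gla protein, a vitamin K-dependent inhibitor of calcification that also binds bone morphogenetic proteins (BMPs). Plac9 encodes a small secreted protein named for its expression in placenta. 1500009L16Rik carries the RefSeq synonym OCC-1, and no role is given to it here.

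All 5 genes are annotated as protein coding in GENCODE vM21 on build GRCm38. Ccn5 lies at chr2:163820861-163833146 on the plus strand, Mgp at chr6:136872435-136875823 on the minus strand and 1500009L16Rik at chr10:83722865-83762762 on the plus strand. Plac9a (chr14:25887506-25903100) and Plac9b (chr14:26167405-26182480) are copies on the minus strand of chromosome 14, and a further copy, Gm9780 (chr14:26027282-26042711), lies between them. RefSeq gives all 3 the synonym Plac9. The best alignments of their annotated transcripts held 0 mismatches over 1040 bases for Plac9a with Plac9b and over 1394 bases for Plac9a with Gm9780. Of the runs of 31 bases in the transcripts, 99.7% of those of Plac9a (1741 of 1747), 96.6% of those of Plac9b (1232 of 1276) and 99.4% of those of Gm9780 (1364 of 1372) also occur in another copy. Reads can therefore be placed on 1 copy by few positions, and the division of counts between the copies is uncertain.

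The identity runs into the promoters, and the windows of Plac9a and Plac9b are shown for this likeness. What limits the counts of each copy is the likeness of the transcripts. RefSeq windows on GRCm38.p6 run from 250 bases before to 50 bases after each annotated start and were found for 3 of the 5 genes. Capitals mark a run of 222 bases that is the same in all 3 copies.
Plac9a, chr14:25902844-25903143, minus strand: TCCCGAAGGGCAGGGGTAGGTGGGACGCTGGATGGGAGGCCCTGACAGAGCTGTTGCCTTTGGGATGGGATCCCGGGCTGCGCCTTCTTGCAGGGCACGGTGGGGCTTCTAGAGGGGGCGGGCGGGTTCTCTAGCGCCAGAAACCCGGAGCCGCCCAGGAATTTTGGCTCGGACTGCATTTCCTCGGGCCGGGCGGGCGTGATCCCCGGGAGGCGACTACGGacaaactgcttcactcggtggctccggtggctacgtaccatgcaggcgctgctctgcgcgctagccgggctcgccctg
Plac9b, chr14:26182302-26182601, minus strand: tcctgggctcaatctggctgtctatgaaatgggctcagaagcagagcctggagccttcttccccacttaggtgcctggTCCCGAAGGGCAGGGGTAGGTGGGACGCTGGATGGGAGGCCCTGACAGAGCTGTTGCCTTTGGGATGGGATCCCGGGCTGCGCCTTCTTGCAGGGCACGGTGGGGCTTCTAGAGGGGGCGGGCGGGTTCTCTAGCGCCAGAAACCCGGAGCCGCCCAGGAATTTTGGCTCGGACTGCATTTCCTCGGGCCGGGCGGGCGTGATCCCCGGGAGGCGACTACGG
The run opens the Plac9a window and closes the Plac9b window, since the annotated starts of the copies differ by 78 bases. The Gm9780 window (chr14:26042688-26042987) is identical to that of Plac9b over all 300 bases. Plac9b took 76.1% of the summed counts of the 3 copies in CD61+ and 75.7% in CD61- cells, Plac9a took 16.9% in CD61+ and 18.9% in CD61- cells, and Gm9780 took 7.03% in CD61+ and 5.40% in CD61- cells. In what follows Plac9 means the sum of Plac9a and Plac9b unless a copy is named.

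Depth lay between 507713 and 6702475 counts a cell, with medians of 1887610 in CD61+, 2368340 in CD61- and 4004930 in VCAM1+ cells. The 9 VCAM1+ cells stand against their label, because their median VCAM1 intensity was 94 against 709 in CD61+ and 519.5 in CD61- cells, and their median Vcam1 level was 0.298 CPM against 412 and 996 CPM. Only 3 of the 9 reached 10 CPM of Adipoq. They are given by their values and support no gate comparison.

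Ccn5, Mgp, Plac9 and 1500009L16Rik were each lower in CD61+ cells, and they differed in how. Ccn5 was lower in the cells that had it as well as counted in fewer cells. Plac9 and 1500009L16Rik were counted in fewer CD61+ cells at a similar level in the cells that had them. Levels are counts over the cell's total scaled to 1000000 (CPM), and summed levels divide the counts of all cells of a gate by their total. Shares have Clopper-Pearson 95% intervals and sums exact Poisson 95% intervals, which cover counting error only.

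Ccn5 ran from 0 through a median of 112 to 1344 CPM in CD61+ cells, against 0 through 1038 to 6021 CPM in CD61- cells. The ranges overlapped, but 2 of 39 CD61+ cells and 20 of 40 CD61- cells reached 1000 CPM. Counts were found in 23 of 39 CD61+ cells (59.0%, 42.1 to 74.4%) and 33 of 40 CD61- cells (82.5%, 67.2 to 92.7%). In cells with a count the median was 310 CPM in CD61+ and 1214 CPM in CD61- cells. Summed Ccn5 was 235 CPM in CD61+ and 1187 CPM in CD61- cells, 5.06-fold lower (4.98 to 5.14) and the largest gap of the members. By plate it was 155 and 317 CPM in CD61+ plates 1 and 2, against 1358 and 956 CPM in CD61- plates 1 and 2. The fold depended on the plates taken, from 3.01-fold to 8.75-fold lower over the 4 plate pairs. Leaving out CD61+ plate 2 gave a log2 ratio of -2.93, against -2.34 with all plates.

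Mgp reached the highest levels in single cells of both gates. It ran from 0 through a median of 0 to 18538 CPM in CD61+ cells, against 0 through 718 to 24796 CPM in CD61- cells, and the ranges overlapped almost fully. It was counted in 15 of 39 CD61+ cells (38.5%, 23.4 to 55.4%) and 28 of 40 CD61- cells (70.0%, 53.5 to 83.4%). Among cells with a count the median was 2266 CPM in CD61+ and 4447 CPM in CD61- cells. Summed Mgp was 1327 CPM in CD61+ and 3302 CPM in CD61- cells, 2.49-fold lower (2.47 to 2.51), and 2.19- to 2.84-fold lower over the plate pairs. Few cells carried these sums, since CD61+ cell 28 held 18.6% of the CD61+ Mgp counts and CD61- cell 27 held 13.1% of those in CD61- cells (cells are numbered by accession within a gate).

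Plac9 was high in most cells that had it, with 16 of 18 CD61+ and 33 of 36 CD61- counting cells at 1000 CPM or more. It ran from 0 through a median of 0 to 10956 CPM in CD61+ cells, against 0 through 3492 to 8928 CPM in CD61- cells. It was counted in 18 of 39 CD61+ cells (46.2%, 30.1 to 62.8%) and 36 of 40 CD61- cells (90.0%, 76.3 to 97.2%). In those cells the median was 3376 CPM in CD61+ and 3685 CPM in CD61- cells, so the gates differed in how many cells had Plac9 and little in how much. The summed level was 1753 CPM in CD61+ and 3233 CPM in CD61- cells, 1.84-fold lower (1.83 to 1.86), and 1.74- to 1.97-fold lower over the plate pairs. Plac9b alone had 1434 CPM in CD61+ and 2589 CPM in CD61- cells and Plac9a alone 319 and 644 CPM. Every cell with a Plac9a count also had a Plac9b count (53 cells), and 11 further cells had Plac9b alone.

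1500009L16Rik had the lowest summed level of the 4. It ran from 0 through a median of 0 to 1623 CPM in CD61+ cells, against 0 through 274 to 1601 CPM in CD61- cells. It was counted in 17 of 39 CD61+ cells (43.6%, 27.8 to 60.4%) and 33 of 40 CD61- cells (82.5%, 67.2 to 92.7%). The median in cells with a count was 366 CPM in CD61+ and 352 CPM in CD61- cells, as close as for Plac9. Its sum was 197 CPM in CD61+ and 364 CPM in CD61- cells, 1.84-fold lower (1.81 to 1.88), and 1.28- to 2.46-fold lower over the plate pairs.

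**Figure D1:**
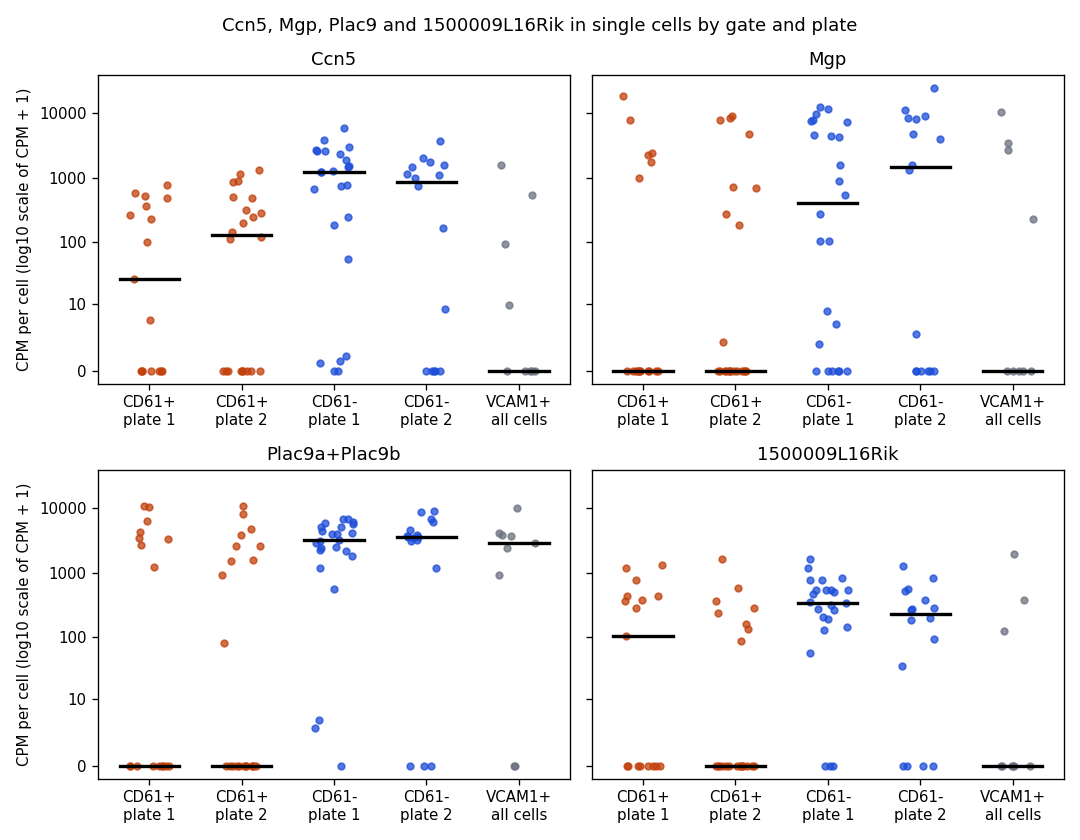
Each point is 1 cell and its height is the level in CPM on a log10 scale of CPM + 1, and black bars are medians over all cells of the column, cells at 0 included. For Plac9 and 1500009L16Rik the cells with a count stand at similar heights in the CD61+ columns and the CD61- columns and the CD61+ columns hold more cells at 0, while for Ccn5 the CD61+ cells with a count are also lower, with medians of 310 and 1214 CPM.

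All 5 genes were lower in each CD61+ plate than in either CD61- plate, as were 17.8% of the 14063 genes with at least 10 counts and a count in at least 5 cells. A further 20.0% were higher in each CD61+ plate than in either CD61- plate. Since the members were chosen with this contrast in view, the share is given as background and nothing is read from it. Adipoq and Cxcl12 were lower in the same plates, with log2 ratios of -1.04 and -1.13 for CD61+ over CD61-, and Alpl was higher, with 0.57. Immediate-early genes, which respond to handling as well as to signals, also moved with the gates, since the summed level of 8 of them had a median of 1596 CPM in CD61+ and 4519 CPM in CD61- cells and ranged from 0 to 26993 and from 0 to 39726 CPM. Their correlations with the 4 levels over all cells were -0.12 to 0.077. Within the 4 plates they ran from -0.48 to -0.17 for Mgp and from -0.26 to -0.018 for Ccn5, and from -0.48 to 0.34 for Plac9 and -0.49 to 0.014 for 1500009L16Rik. Their part in the gate differences was not tested.

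In the 9 VCAM1+ cells summed levels were 170 CPM for Ccn5, 2613 CPM for Mgp, 2184 CPM for Plac9 and 107 CPM for 1500009L16Rik. Cell 2 alone held 78.5% of the Mgp counts, and cell 7 held 54.2% of the Ccn5 counts. Plac9 stood apart from the others in this gate, with a count in 7 of 9 cells against 4 for Ccn5, 4 for Mgp and 3 for 1500009L16Rik.

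The 4 levels went together from cell to cell. All 4 were counted in 39 of the 91 cells and none in 14. In CD61+ cells the numbers were 10 of 39 with all and 10 with none, and in CD61- cells 23 of 40 with all and 2 with none. Spearman's rho on CPM over the 91 cells, which share their library preparation and differ in depth, was 0.65 for Ccn5 with 1500009L16Rik and 0.63 for Plac9 with 1500009L16Rik. It was 0.56 for Ccn5 with Plac9, 0.55 for Mgp with 1500009L16Rik, 0.54 for Mgp with Plac9 and 0.52 for Ccn5 with Mgp. Every one of these 6 pairs was positive in each of the 4 CD61+ and CD61- plates, from 0.28 (Ccn5 with Mgp) to 0.81 (Plac9 with 1500009L16Rik). Total counts per cell had rho between -0.12 (Plac9) and 0.0048 (Mgp) with them over all cells. Within the 4 plates it ran from -0.36 to 0.25 for Mgp and from -0.25 to 0.23 for Ccn5. For 1500009L16Rik it ran from -0.35 to 0.19 and for Plac9 from -0.29 to -0.033.

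Joint counts were not even between the genes. In CD61- cells each of the 33 cells with Ccn5 also had Plac9, while 3 cells had Plac9 without Ccn5. In CD61+ cells 16 of the 23 Ccn5 cells had Plac9, and 7 had Ccn5 without it. Of the 50 cells with Mgp 46 had Plac9, whereas 18 cells had Plac9 without Mgp. Cells with 1500009L16Rik numbered 56, and 52 of these had Plac9.

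Adipoq, Cxcl12 and Alpl entered the choice of the members, so their correlations are given as values and support nothing. With Adipoq rho over 91 cells was 0.63 for 1500009L16Rik, 0.57 for Plac9, 0.50 for Ccn5 and 0.32 for Mgp, where the median of 8687 genes counted in at least 25% of the cells was -0.0037. With Cxcl12 it was 0.70 for 1500009L16Rik, 0.63 for Ccn5, 0.44 for Mgp and 0.43 for Plac9, beside a median of 0.032. All 56 cells with 1500009L16Rik also had a Cxcl12 count. Each of these correlations was lower within the 54 cells with at least 10 CPM of Adipoq, a set added after the values were seen. There rho with Adipoq was 0.0074 for 1500009L16Rik, 0.0082 for Plac9, -0.093 for Ccn5 and -0.39 for Mgp. With Cxcl12 it was 0.47 for Ccn5, 0.34 for 1500009L16Rik, 0.12 for Mgp and -0.079 for Plac9.

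With Alpl each member was negative, at -0.57 for Plac9, -0.38 for Ccn5, -0.35 for Mgp and -0.31 for 1500009L16Rik, beside a median of 0.067. The sign held in each of the 4 plates for every member, although Mgp in CD61- plate 1 was at -0.011.

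Each member had a higher rho with Adipoq in CD61+ than in CD61- cells. For 1500009L16Rik rho was 0.79 in CD61+ and 0.20 in CD61- cells, for Plac9 0.72 and 0.30, for Ccn5 0.62 and 0.15, and for Mgp 0.36 and -0.042. With Cxcl12, rho was 0.35 in CD61+ and 0.52 in CD61- cells for Ccn5 and 0.64 and 0.57 for 1500009L16Rik, so these genes moved in opposite directions. The gates also differ in how much Adipoq varies, since 17 of 39 CD61+ and 36 of 40 CD61- cells had a count of it. The difference between gates was not tested.

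**Figure D2:**
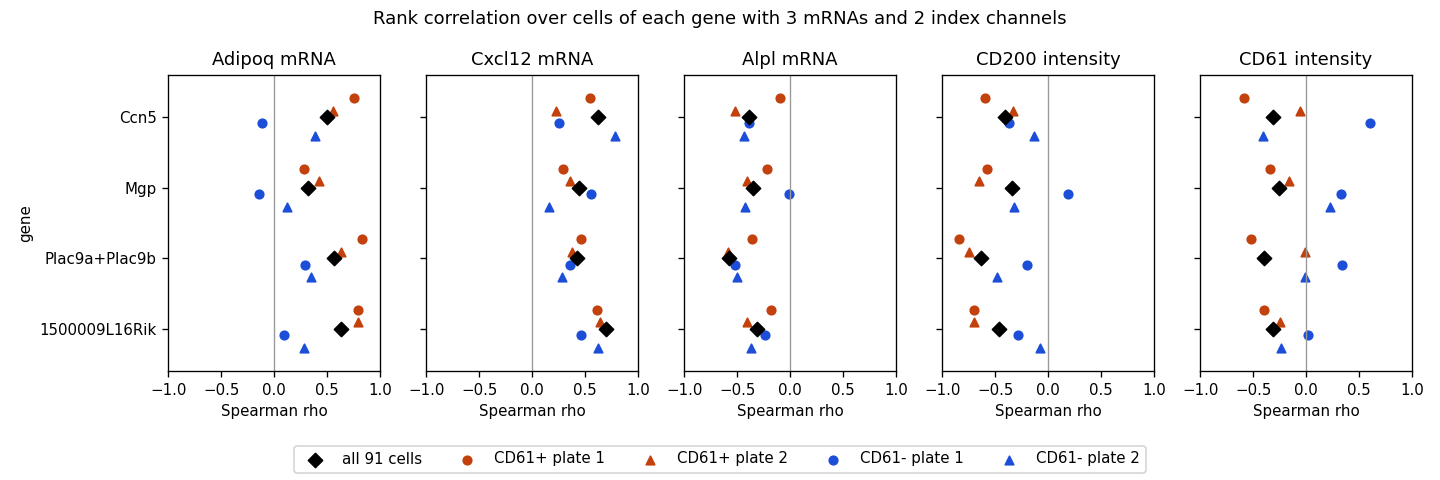
Spearman's rho (horizontal axis, -1 to 1) of Ccn5, Mgp, Plac9 and 1500009L16Rik with 3 mRNA levels and 2 index-sort intensities, over all 91 cells (diamonds) and within each CD61+ plate and CD61- plate. Cxcl12 lies right of 0 and Alpl left of 0 in every plate, Adipoq lies further right in CD61+ plates, and CD61 intensity scatters to both sides of 0.

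Cells were then set in 4 classes by whether Adipoq and Alpl each reached 10 CPM. These classes are ranges of 2 genes, not cell types, and 1 cell for Adipoq and 4 for Alpl lay between 5 and 20 CPM. Adipoq without Alpl was found in 35 cells (4 CD61+, 26 CD61-, 3 VCAM1+ and 2 with no assigned gate), both in 19 (11 CD61+ and 8 CD61-), Alpl without Adipoq in 25 (19 CD61+, 4 CD61-, 1 VCAM1+ and 1 with no assigned gate) and neither in 12 (5 CD61+, 2 CD61- and 5 VCAM1+).

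Plac9 was counted in 34 of 35 cells with Adipoq alone, 18 of 19 with both, 6 of 25 with Alpl alone and 6 of 12 with neither. Its medians were 4446, 2621, 0 and 276 CPM in the same order. 1500009L16Rik was counted in 34, 16, 6 and 0 cells of these classes, so that its 12 cells with neither gene had none, a share whose upper 95% limit is 26.5%. It thus followed the classes as Plac9 did except in the cells with neither gene.

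Ccn5 was counted in 32 of 35, 17 of 19, 11 of 25 and 3 of 12 cells. Its median was 1162 CPM in cells with Adipoq alone and 286 CPM in cells with both, a wider step than for Plac9. The step of Ccn5 was seen in CD61- cells, with medians of 1477 and 204 CPM. It was not seen in CD61+ cells, with 302 CPM in 4 cells with Adipoq alone and 479 CPM in 11 with both. Mgp was counted in 29, 12, 6 and 3 cells, with a median of 3991 CPM in cells with Adipoq alone and 691 CPM in cells with both. Among the 54 cells with Adipoq, rho with Alpl was -0.52 for Plac9, -0.34 for Ccn5, -0.19 for Mgp and -0.18 for 1500009L16Rik.

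**Figure D3:**
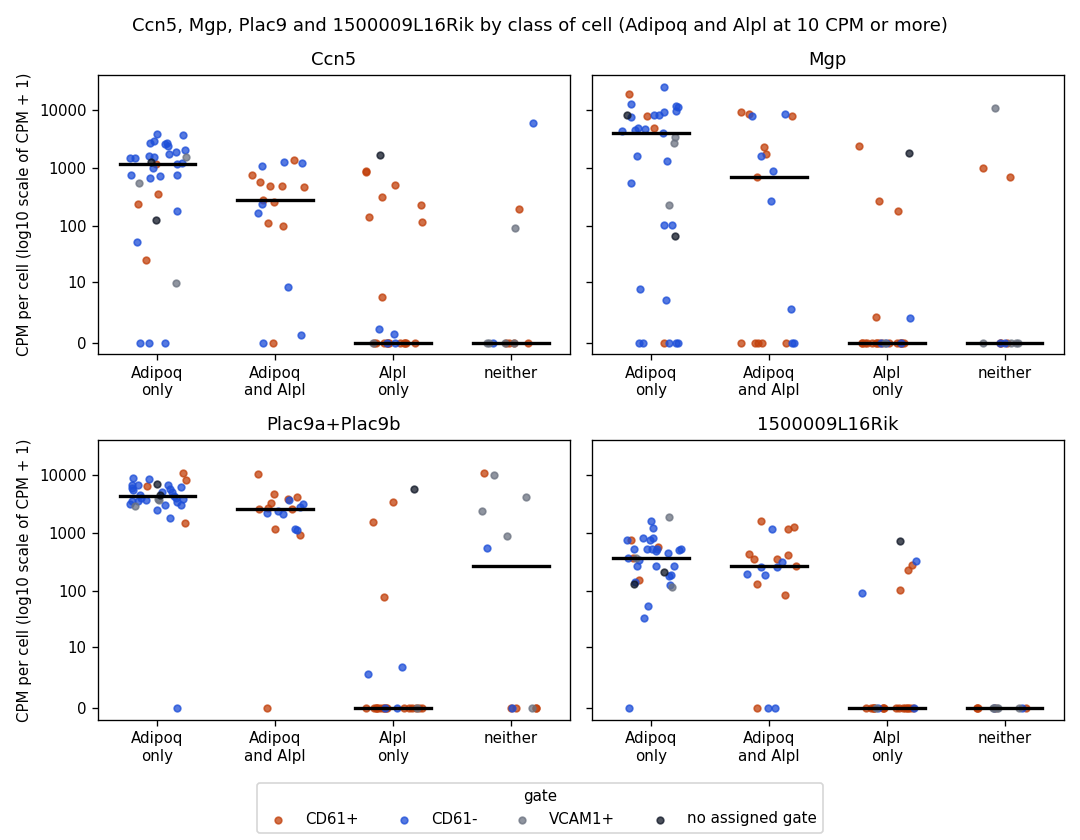
Level per cell in CPM (log10 scale of CPM + 1) by whether Adipoq and Alpl reach 10 CPM, coloured by gate, with black bars at the class medians. With all gates together the 4 medians are highest where Adipoq stands alone, at 1162 (Ccn5), 3991 (Mgp), 4446 (Plac9) and 378 CPM (1500009L16Rik). Most cells with Alpl alone are at 0. Within CD61+ cells the Ccn5 median was 302 CPM with Adipoq alone (4 cells) and 479 CPM with both (11 cells).

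Among cells with at least 10 CPM of Adipoq the gates differed little in Plac9 and Mgp, and summed 1500009L16Rik was higher in CD61+ cells at a similar median. Ccn5 stayed lower in CD61+ cells, by a smaller fold than over all cells. Adipoq entered the choice of the members, so these values are a description. This comparison was added after the values were seen and holds 15 CD61+ cells (7 and 8 by plate) and 34 CD61- cells (21 and 13). Summed Plac9 was 4286 CPM in these CD61+ and 3814 CPM in these CD61- cells, a log2 ratio of 0.17 that ran from -0.29 to 0.54 over the plate pairs. Mgp was 3810 and 3907 CPM, a log2 ratio of -0.036 (-0.31 to 0.19 over plate pairs), and 1500009L16Rik 582 and 414 CPM, a log2 ratio of 0.49 (0.11 to 0.97). The plate pairs thus fell on both sides of 0 for Plac9 and Mgp, and summed 1500009L16Rik was higher in CD61+ cells in each pair. Medians of 1500009L16Rik lay closer, at 371 CPM in these CD61+ and 334 CPM in these CD61- cells.

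Ccn5 in the same cells had a median of 362 CPM (0 to 1344) in CD61+ and 1184 CPM (0 to 3827) in CD61- cells. Its sum was 494 CPM in CD61+ and 1282 CPM in CD61- cells, 2.59-fold lower (2.55 to 2.64), with log2 ratios of -1.83 to -0.96 over the plate pairs and -1.61 to -1.25 when any 1 cell was left out. It was counted in 14 of 15 CD61+ and 30 of 34 CD61- cells, so here the gates differed in the level per cell more than in the share of cells. The share of cells with Alpl also differed, since 11 of the 15 CD61+ and 8 of the 34 CD61- cells reached 10 CPM of Alpl. Its summed level differed little, at 306 CPM in CD61+ and 279 CPM in CD61- cells. That is a log2 ratio of 0.13, which ran from -0.76 to 0.93 over the plate pairs. In cells with both genes the median of Ccn5 was 479 CPM in 11 CD61+ and 204 CPM in 8 CD61- cells, and in cells with Adipoq alone 302 CPM in 4 CD61+ and 1477 CPM in 26 CD61- cells. The lower Ccn5 of CD61+ cells was therefore seen in the class with Adipoq alone, where 4 CD61+ cells were measured, and not in the class with both.

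**Figure D4:**
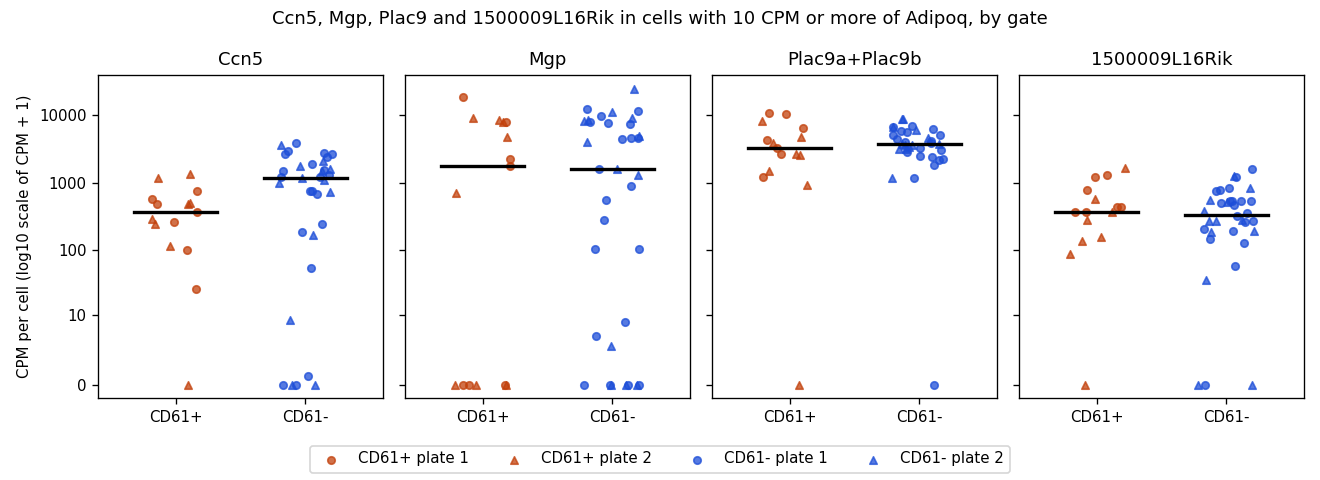
Level per cell in CPM (log10 scale of CPM + 1) in the 15 CD61+ and 34 CD61- cells with at least 10 CPM of Adipoq, with plates as symbols and medians as black bars. Ccn5 has medians of 362 CPM in CD61+ and 1184 CPM in CD61- cells, while the medians of Mgp, Plac9 and 1500009L16Rik lie close together.

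The index-sort record gives surface protein of the same cells. CD200 intensity, which no gate used, went with lower levels of each member, with rho over 91 cells of -0.64 for Plac9, -0.47 for 1500009L16Rik, -0.41 for Ccn5 and -0.34 for Mgp. In CD61+ cells rho was -0.78 for Plac9, -0.66 for 1500009L16Rik, -0.61 for Mgp and -0.40 for Ccn5, and in CD61- cells -0.33, -0.18, -0.015 and -0.29. CD61+ cells with a Plac9 count had CD200 intensities from 58 through a median of 413 to 7834, and the 21 without it from 679 through 3612 to 5056. The CD200 median over all cells was 2584 in CD61+ and 337 in CD61- cells. The 36 CD61- cells with Plac9 had a median of 329.5 and the 4 without it 1367.5. Cd200 mRNA went the same way more weakly, with rho of -0.34 for Plac9. Among the 54 cells with Adipoq, rho with CD200 intensity was -0.22 for Plac9, -0.12 for 1500009L16Rik, -0.054 for Ccn5 and 0.0062 for Mgp.

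**Figure D5:**
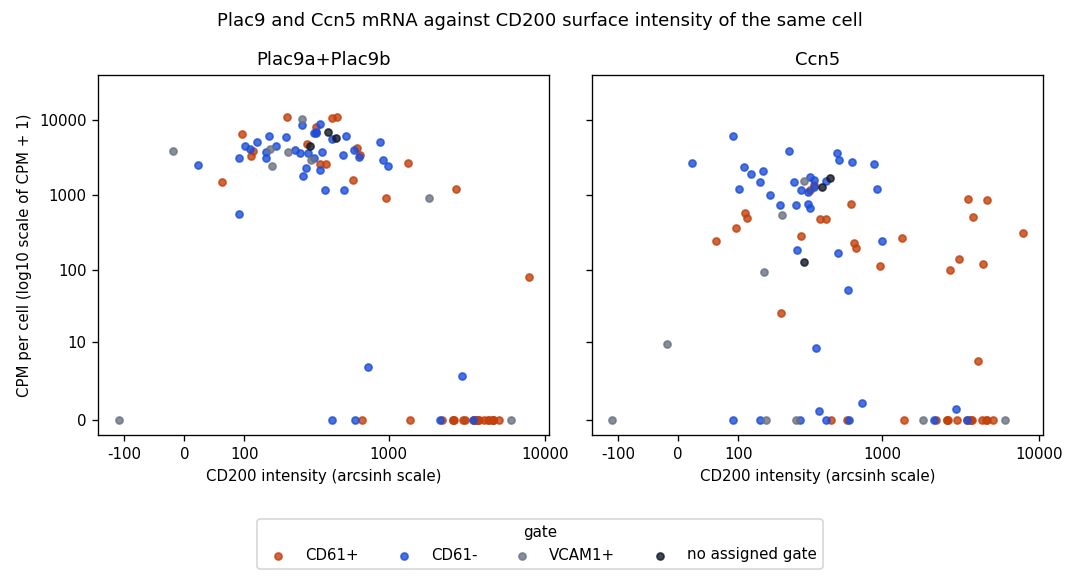
Plac9 (left) and Ccn5 (right) in CPM on a log10 scale of CPM + 1 against CD200 intensity of the same cell on an arcsinh scale, coloured by gate. Above a CD200 intensity of 1000 few cells have Plac9, whereas Ccn5 is still counted in several CD61+ cells there.

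CD61 intensity, on which the cells were gated, had rho between -0.40 (Plac9) and -0.26 (Mgp) over all cells, but within plates it ran from -0.59 to 0.60 for Ccn5 and from -0.52 to 0.34 for Plac9. The relation thus holds no one sign inside the gates. CD45 intensity, measured in cells sorted as negative for it, had rho over all cells of -0.43 for Plac9, -0.39 for 1500009L16Rik, -0.33 for Ccn5 and -0.26 for Mgp. Within plates it ran from -0.59 to 0.15 for Plac9 and from -0.46 to 0.20 for Mgp. It was negative in each plate for Ccn5 and 1500009L16Rik. These channels differ between gates, with a median CD45 intensity of 809 in CD61+ and 435 in CD61- cells. Over all cells, correlations with CD51 and the DNA dye stayed between -0.15 and -0.0040, and with VCAM1 between -0.22 and -0.030. Within plates they spread further, as CD51 did from -0.54 to 0.12 for 1500009L16Rik.

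Marker lists of stromal cell types were set beside the members. The CAR list holds Cxcl12 and Adipoq and the osteolineage list holds Alpl, which entered the choice of the members, and Cxcl12 alone had rho of 0.94 with the CAR list, so these lists are not separate evidence. The CAR list, in which all 12 genes were measured, had rho of 0.72 with Ccn5, 0.72 with 1500009L16Rik, 0.53 with Plac9 and 0.50 with Mgp. Its summed level ran from 97.3 through 39998 to 72255 CPM in the 63 cells with Ccn5 and from 0.255 through 752 to 45594 CPM in the 28 without. Osteolineage markers (12 of 12 measured) had rho of -0.52 with Plac9, -0.26 with 1500009L16Rik, -0.25 with Mgp and -0.21 with Ccn5. In the 64 cells with Plac9 they ran from 2250 through 10891 to 231661 CPM and in the 27 without from 0.511 through 74893 to 531306 CPM. Chondrocyte markers, of which 3 of 8 were measured, had -0.54 with Plac9 and -0.36 to -0.28 with the others.

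Fibroblast markers (8 of 8) had rho of -0.40 with Ccn5 and -0.28 with Plac9, and smooth muscle and pericyte markers (6 of 8) had 0.35 to 0.50 with the 4 levels, although their median in cells with 1500009L16Rik was only 106 CPM. Of the 6 muscle and pericyte genes only Mylk, counted in 79 of 91 cells, had a median above 0 over all cells, at 48.5 CPM. Endothelial markers (8 of 8) had -0.15 to 0.017 and blood cell markers (6 of 8) -0.23 to -0.059. The endothelial gene Cdh5 and the blood cell gene Ptprc had medians of 0 in every gate. The part of these other cell types in the members' levels was not tested.

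Some cells held a member at over 500 CPM without 10 CPM of Adipoq, 13 of the 37 such cells, and the examples here were chosen after their values were seen. Plac9 was the member in 9 of these. CD61+ cell 20 had 10911 CPM of Plac9 and 705 CPM of Mgp with 0.526 CPM of Cxcl12, and 13127 CPM of the fibroblast proteoglycan decorin (Dcn) and 2430 CPM of the fibroblast gene Clec3b. VCAM1+ cell 9 had 4143 CPM of Plac9 with 8161 CPM of Dcn, and VCAM1+ cell 2 had 10626 CPM of Mgp and 914 CPM of Plac9 with 16619 CPM of Dcn. Each of these 3 cells had under 1 CPM of Cxcl12. Another 4 of the 9, CD61+ cells 16 and 34, CD61- cell 9 and cell 3 with no assigned gate, had 16613 to 23699 CPM of Cxcl12 and at most 211 CPM of Dcn. VCAM1+ cell 4 had 2435 CPM of Plac9 and 31.2 CPM of the endothelial gene Cdh5, with no count of Dcn or Cxcl12. No other of the 13 cells had a Cdh5 count. VCAM1+ cell 6 had 10129 CPM of Plac9 with 1619 CPM of Dcn and no count of Cxcl12.

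Ccn5 was over 500 CPM in 5 of the 13 cells. CD61- cell 9, also among the Plac9 cells, had the highest Ccn5 of all, 6021 CPM, with 16613 CPM of Cxcl12, 553 CPM of Plac9 and no count of Mgp, 1500009L16Rik or Adipoq. CD61+ cells 1 and 11 had 896 and 867 CPM of Ccn5 with no count of the other 3, beside 124430 and 195115 CPM of the osteoblast matrix gene Spp1. In the other direction, CD61+ cell 21 had 552 CPM of Adipoq, 2779 CPM of Alpl and 28461 CPM of Cxcl12 and no count of any member.

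The genes whose levels followed the members most closely were ranked among 8001 genes counted in at least 25% of the cells, leaving out mitochondrial, ribosomal, predicted and Rik genes. Hp, which encodes the haemoglobin-binding haptoglobin, was among the 8 closest genes of all 4, with rho of 0.72 for Ccn5, 0.58 for Mgp, 0.63 for Plac9 and 0.70 for 1500009L16Rik. It had a median of 535 CPM in CD61+ and 4196 CPM in CD61- cells. Serping1, the inhibitor of complement C1 proteases, was among the closest for Mgp (0.55), Plac9 (0.63) and 1500009L16Rik (0.72). Both genes stood at higher levels in CD61- cells, as the members did.

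For Ccn5 the closest genes after Hp were Gpx3 (0.71), Lpl (0.70), Dpep1 (0.70), Tmem176b (0.67), Kng2 (0.67), Kitl (0.66) and Agt (0.65). Lpl encodes lipoprotein lipase and Kitl the stem cell factor, and both are used as CAR cell markers. Plac9 had a different set, led by Rarres2 (0.77), which encodes the adipokine chemerin, Prelp (0.71), a matrix proteoglycan, Lrrc61 (0.65), the complement protease C1ra (0.65), Angptl1 (0.63) and complement C3 (0.63). The rank correlation of Rarres2 with Plac9 was 0.74 in CD61+ and 0.71 in CD61- cells. Other close genes were less even between the gates. C3 with Plac9 had 0.76 in CD61+ and 0.33 in CD61- cells. With Ccn5, Gpx3 had 0.34 in CD61+ and 0.65 in CD61- cells, and Kitl 0.36 and 0.67.

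Mgp was followed by Fmo2 (0.58), Plpp3 (0.58), the leptin receptor Lepr (0.57), Pdzrn4 (0.55), Rarres2 (0.55) and the retinaldehyde dehydrogenase Aldh1a2 (0.55). 1500009L16Rik had Kng2 (0.73), Lpl (0.72), C1ra (0.71), the cytokine Il34 (0.71), Tmem176b (0.70) and Gpx3 (0.70). For the mean rank of the 4 levels the closest were Hp (0.79), Rarres2 (0.76), Serping1 (0.75), Lpl (0.75), Gpx3 (0.75), C1ra (0.74), Kng2 (0.73), Svep1 (0.70), C1s1 (0.69) and Tmem176b (0.69).

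At the other end, Cyfip2 was among the 4 lowest genes of all 4 levels, with rho from -0.72 (Plac9) to -0.49 (Ccn5). Bglap3, a copy of the osteocalcin gene, was among the lowest for Mgp (-0.53), Plac9 (-0.67) and 1500009L16Rik (-0.53). Mef2c, a transcription factor, was lowest for Ccn5 (-0.56) and among the lowest for Plac9 (-0.63), as was Ccn4 for Plac9 (-0.61). The others were Timp3 (-0.50) and Mgll (-0.47) for Ccn5, Cadm1 (-0.54) and Bglap (-0.50) for Mgp, and Fam20c (-0.54) and Cpe (-0.52) for 1500009L16Rik.

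Relatives and partners of the members lay on both sides of the gates. Of the 5 other CCN genes listed 3 were measured. Ccn1 had 869 CPM in CD61+ and 3498 CPM in CD61- cells and was lower in both CD61+ plates. Ccn4 had 169 CPM in CD61+ and 36.7 CPM in CD61- cells and was higher in both, and Ccn2 (152 and 127 CPM) was neither. Only Ccn1 thus lay on the side of Ccn5 by gate, and its rho with Ccn5 over cells was 0.19.

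Mgp needs carboxylation that uses vitamin K. Of 14 genes of that cycle or encoding carboxylated proteins, 5 lay above and 3 below both CD61- plates in each CD61+ plate, with a median log2 ratio of 0.41 where all genes had 0.0084. The shares over all genes were 20.0% higher and 17.8% lower, and with 14 genes nothing is read from the counts of this list. Vkorc1, the vitamin K epoxide reductase, had 551 CPM in CD61+ and 280 CPM in CD61- cells, and was higher in both CD61+ plates. The carboxylated osteocalcins went against Mgp, with Bglap2 at 1387 CPM in CD61+ and 649 CPM in CD61- cells and Bglap at 840 and 622 CPM, the last in neither direction by plate. Gas6, a carboxylated ligand of TAM receptors, went with Mgp at 917 CPM in CD61+ and 1554 CPM in CD61- cells.

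BMP ligands, receptors, inhibitors and targets, of which 26 were tested, held 4 higher and 7 lower genes in both CD61+ plates. Of all genes 20.0% were higher and 17.8% lower, and nothing is read from the counts of this list. Its median log2 ratio was -0.31. The ligand Bmp4 had 307 CPM in CD61+ and 647 CPM in CD61- cells, and the inhibitor Chrdl1 404 and 1010 CPM, both lower in both CD61+ plates. Bmp4 had rho of 0.55 with Ccn5 and 0.39 with Mgp, and Chrdl1 0.58 and 0.42. Fstl1 (649 and 764 CPM) and the target Id3 (2903 and 4053 CPM) were in neither direction by plate. Of 8 genes listed as mineralization inhibitors or in phosphate metabolism, both CD61+ plates had 6 higher and 0 lower, beside 20.0% and 17.8% of all genes, with a median log2 ratio of 2.02. The 6 include Alpl, which entered the choice of the members. They also include Nt5e, which was near the floor at 4.09 CPM in CD61+ and 0.0653 CPM in CD61- cells. Enpp1, Ank and Spp1 are known to restrain mineral, as Mgp is, and Slc20a1 and Phospho1 lay in neither direction by plate. Spp1 had 67350 CPM in CD61+ and 12267 CPM in CD61- cells, Alpl 938 and 630 CPM, the phosphodiesterase Enpp1 107 and 33.4 CPM and the pyrophosphate transporter Ank 109 and 15.8 CPM.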

How the data were processed

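The submitters' processing notes name kallisto 0.43.0, R 3.5.1 and build mm10, and which annotation was used is not stated there. The authors deposited estimated counts per gene and cell, whole numbers throughout and not normalised. The authors also deposited counts of reads and of genes per cell, the second matching genes with 4 or more counts for each of the 91 cells. Surface protein and scatter were deposited by the authors as linear intensity values of the sorter. In the table of cells 36 columns were not used.

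The members and gene lists were chosen with earlier results of these data known. Counts were divided by the cell's total (CPM) or summed per gate and plate. No cell was removed, no doublet caller was run, and no pair of cells had identical counts. Gates were compared without a test, since no animal is named; ratios have the exact binomial split of 2 sums, at 95%, for counting error only, since reads without molecular identifiers are not independent molecules. A sum under 3 counts was raised to 3 before a log2 ratio. Spearman's rho across cells is a description. Closest genes were the 8 highest and 4 lowest by rho for each of 4 levels and the 10 highest for their mean rank, and from each related list the 4 genes with the highest level over all cells were taken; other named genes were chosen after their values were seen. Symbols matched GENCODE vM21 for 16526 of 16580 genes. Alternatives were TMM (edgeR 4.0.16) and DESeq2 1.42.0 size factors, means and medians over cells, thinning to 1000000 counts (82 cells), left-out plates and cells, and other cell sets for rho. Statistics were tested on simulated data. Python 3.11.15, scipy 1.17.1, Biopython 1.88 and R 4.3.3 were used.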

Additional observations from a re-analysis of the deposited data

Results flagged for a closer look

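In each of the 4 levels and both Plac9 copies 1 of the 9 VCAM1+ cells stood far above the next. Only 4 of the 9 cells had a count of Ccn5, 4 of Mgp and 3 of 1500009L16Rik, against 7 for Plac9. How often such uneven levels would be flagged by chance was not tested, so nothing is read from the flags. The highest Mgp was 10626 CPM against 3452 CPM in the next cell, and the highest Ccn5 1557 against 548 CPM. For 1500009L16Rik it was 1940 against 374 CPM. Plac9a reached 2301 against 1098 CPM, Plac9b 7828 against 3903 CPM and their sum 10129 against 4143 CPM, all in 1 cell with no Adipoq, Cxcl12 or Alpl count. The highest cells differed between the genes, being cell 2 for Mgp, cell 7 for Ccn5, cell 3 for 1500009L16Rik and cell 6 for Plac9.

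The 3 cells with no assigned gate, which enter no gate comparison, held signal: in 3 of 3 every member had more than 3 counts. Ccn5 was 126, 1257 and 1682 CPM in cells 1, 2 and 3, Mgp 66.9, 8186 and 1813 CPM, Plac9 4556, 6915 and 5687 CPM and 1500009L16Rik 215, 132 and 744 CPM. Cell 3 had no Adipoq count, beside 23699 CPM of Cxcl12.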

How the results depend on the processing

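Of 85 alternatives to the log2 ratios of CD61+ over CD61-, 81 were below 0. The 4 above 0 came from taking cells with at least 10 CPM of Adipoq, added after seeing the data: 0.29 for Plac9a, 0.14 for Plac9b, 0.17 for their sum and 0.49 for 1500009L16Rik, beside -1.38 for Ccn5 and -0.036 for Mgp. Medians of log2(CPM + 1) gave -3.20 (Ccn5), -9.45 (Mgp), -8.63 (Plac9a), -11.39 (Plac9b), -11.77 (sum) and -8.10 (1500009L16Rik), where the CD61+ median is 0 for each but Ccn5. Mean CPM gave -0.74 for Plac9b and -0.78 for the sum, and thinning -0.76 and -0.79. Leaving out 1 plate or 1 cell gave -2.93 to -1.90 for Ccn5, -1.57 to -1.15 for Mgp, -1.52 to -0.75 for Plac9a, -1.09 to -0.75 for Plac9b, -1.12 to -0.78 for the sum and -1.18 to -0.53 for 1500009L16Rik. With the plate number as a replicate block the values were -2.36, -1.32, -0.89 (Plac9 sum) and -0.83; no label says that a number marks a shared day. With Gm9780 the Plac9 ratio was -0.86. Shares of cells with a count by gate moved by less than their intervals under every alternative run.

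The median rho of the 6 pairs was 0.56, and 0.38 in CD61- plate 1, 0.25 in cells with both counts and 0.34 in Adipoq cells. With Adipoq it was 0.53, and 0.17 in CD61- cells, -0.011 in CD61- plate 1, -0.059 in cells with both counts and -0.043 in Adipoq cells. Single genes changed sign there too. Ccn5 had -0.11, -0.10 and -0.093 in the last 3 sets, Mgp -0.042 in CD61- cells and then -0.14, -0.13 and -0.39, and 1500009L16Rik -0.014 in cells with both counts. With Cxcl12 the median was 0.54, and 0.39 in CD61+ cells, 0.42 in CD61- cells, 0.37 in CD61+ plate 2, 0.41 and 0.45 in CD61- plates 1 and 2, 0.25 in cells with both counts, 0.45 with ranks centred by plate and 0.23 in Adipoq cells, where Plac9 had -0.079. With Alpl it was -0.37, and -0.20 in CD61+ plate 1 and -0.66 in cells with both counts. With CD200 it was -0.44, and -0.086 in Adipoq cells. The causes were not tested. Depth limits cells at 0, since 9 of 91 cells had under 1000000 counts, and 1 gate is 1 sample.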

Other observations

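VCAM1 surface intensity went with lower Ccn5 in CD61- cells, with rho of -0.44 over 40 cells, and -0.19 over the 39 CD61+ cells. Ter119/CD41 intensity had rho of 0.50 with Plac9 in CD61+ and 0.11 in CD61- cells. Itgb3, which encodes CD61, had rho of -0.30 with Ccn5, -0.30 with Plac9, -0.25 with Mgp and -0.41 with 1500009L16Rik over 91 cells.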
